A study of Mus musculus with 10 samples.

Results

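The CXC chemokine ligands are a family of small secreted proteins that steer leukocytes into tissue, and 10 of their genes were examined in tumour-associated macrophages of the mouse. The members were given by symbol (Cxcl1, Cxcl2, Cxcl3, Ppbp, Cxcl9, Cxcl10, Cxcl16, Cxcl13, Cxcl14 and Pf4), and all 10 were found among the 46956 loci with a symbol, each at a locus of its own. Macrophages were sorted from tumours of 4T1, a mouse mammary carcinoma line, grown from 100000 cells placed in a mammary fat pad of mice of the strain BALB/cJ. Of the 10 libraries, 5 came from mice given PBS vehicle and 5 from mice given JHU083 at 1 mg/kg from day 7 to day 13. JHU083 releases 6-diazo-5-oxo-L-norleucine, an antagonist of glutamine that inhibits the enzymes consuming it. Every tumour was taken on day 14, and live CD45+ CD11b+ F4/80+ cells that lacked CD8, Ly6C and Ly6G were sorted. The age of the mice, the dosing days of the vehicle and whether a sample is 1 mouse or a pool are not given in the sources used here, so p-values measure the spread between these samples. The comparison asks how the drug changes expression in these cells, and here how the attractants of neutrophils and of T cells compare.

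CXC ligands act through G protein-coupled receptors, and the receptor sets which cells are attracted. Cxcl1, Cxcl2, Cxcl3 and the platelet protein encoded by Ppbp bind CXCR2, the main chemokine receptor of neutrophils, and Cxcl1, Cxcl2 and Cxcl3 are classical NF-kappaB target genes. Cxcl9 and Cxcl10 are induced by interferons and bind CXCR3 on activated T cells and natural killer cells. Cxcl16 is a membrane-anchored ligand of CXCR6 on T cells, Cxcl13 attracts B cells through CXCR5, Cxcl14 is a ligand made constitutively by many epithelia, and Pf4 (platelet factor 4) is known from platelet granules. In tumours, macrophages are a known source of both neutrophil and T cell attractants.

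The promoters of 5 members are shown so that the matches shared by the neutrophil attractants Cxcl1, Cxcl2 and Cxcl3 can be set beside those of the interferon-induced ligands. The sequences are from RefSeq (GRCm38.p6), and each gives the 250 bases before the annotated start, 5' to 3' on the strand of the gene. Cxcl1 (chr5:90890995-90891244), Cxcl2 (chr5:90903649-90903898) and Cxcl3 (chr5:90785851-90786100) lie on the plus strand, and Cxcl9 (chr5:92328080-92328329) and Cxcl10 (chr5:92348890-92349139) on the minus strand. Capitals mark matches on either strand to 3 motifs, and overlapping matches run together. The motifs are a kappa-B-like motif (GGG and TTCC with any 3 bases between them), the interferon-stimulated response element (TTTC and TTTC with any 2 bases between them) and the interferon-gamma activated site (TTCNNNGAA).
Cxcl1: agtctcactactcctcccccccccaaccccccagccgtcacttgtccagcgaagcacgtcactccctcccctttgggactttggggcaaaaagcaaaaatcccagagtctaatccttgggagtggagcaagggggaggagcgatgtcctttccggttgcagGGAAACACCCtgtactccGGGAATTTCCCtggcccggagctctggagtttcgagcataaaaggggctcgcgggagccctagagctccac
Cxcl2: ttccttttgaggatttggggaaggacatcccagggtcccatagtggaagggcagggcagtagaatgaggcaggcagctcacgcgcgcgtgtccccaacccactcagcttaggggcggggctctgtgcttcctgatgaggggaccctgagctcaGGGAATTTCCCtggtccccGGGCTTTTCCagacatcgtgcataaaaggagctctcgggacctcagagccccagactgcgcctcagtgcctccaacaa
Cxcl3: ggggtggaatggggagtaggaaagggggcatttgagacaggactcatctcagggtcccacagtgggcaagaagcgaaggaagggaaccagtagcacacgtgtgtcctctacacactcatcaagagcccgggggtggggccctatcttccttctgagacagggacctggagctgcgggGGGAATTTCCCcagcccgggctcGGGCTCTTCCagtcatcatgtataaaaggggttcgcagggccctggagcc
Cxcl9: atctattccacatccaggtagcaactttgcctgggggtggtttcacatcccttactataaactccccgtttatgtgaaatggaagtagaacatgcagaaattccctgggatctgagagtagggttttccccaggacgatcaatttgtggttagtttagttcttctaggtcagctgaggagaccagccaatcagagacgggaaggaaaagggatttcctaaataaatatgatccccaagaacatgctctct
Cxcl10: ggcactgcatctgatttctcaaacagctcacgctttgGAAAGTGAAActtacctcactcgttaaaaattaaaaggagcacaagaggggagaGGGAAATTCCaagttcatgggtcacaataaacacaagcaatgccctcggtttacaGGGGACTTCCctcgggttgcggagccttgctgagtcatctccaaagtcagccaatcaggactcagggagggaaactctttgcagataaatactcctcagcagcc
Cxcl1, Cxcl2 and Cxcl3 each held GGGAATTTCC on the plus strand, with its first base 71, 97 and 73 bases before the start. A minus-strand match to the kappa-B-like motif overlapped each of these, starting 1 base nearer to the gene. Cxcl1 held another kappa-B-like match at 89 bases, Cxcl2 at 78 and Cxcl3 at 50. Cxcl10 held GGGAAATTCC at 159 and GGGGACTTCC at 104 bases before the start, and GAAAGTGAAA, a minus-strand match to the response element, at 213. The windows of Cxcl9, Ppbp, Cxcl13 and Pf4 held no match to these letters, and that of Cxcl14 held TTCTGAGAA at 191 and GAAACAGAAA at 172 bases. Over the same 250 bases of all 32851 promoters in the table, 4.65% held the kappa-B-like motif, 2.98% the response element and 7.02% TTCNNNGAA. A match describes the letters only, and 9 of the 10 members had a promoter in the table. Distances are from the RefSeq start. The GENCODE gene of Cxcl2 begins at 90903871, inside the window shown, so its distances depend on the annotation used.

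The libraries held 11147870 to 15740701 fragments, and those of JHU083 (13638381 to 15740701) tended to be deeper than those of vehicle (11147870 to 14575932). Levels are given as CPM, fragments scaled to a common library total, and per-length values as FPKM. Macrophage genes dominated, and the summed level of 8 was 8649 to 10517 CPM in vehicle and 10726 to 12906 CPM in JHU083. Of these 8, 4 rose, beside 18.4% of all loci tested, among them Csf1r (1836 ± 88.0 to 2621 ± 205 CPM, SD, n = 5). Of the markers of other leukocytes, Cd3d had at most 8 fragments and Ly6g at most 2 in any library, while others were well above 0. The summed level of 10 neutrophil markers was 98.5 to 110.9 CPM in vehicle and 98.6 to 151.3 CPM in JHU083, most of it Csf3r (58.4 ± 4.34 and 84.5 ± 10.9 CPM). Monocyte markers, most of it Ccr2, summed to 313.6 to 383.8 and 271.6 to 523.1 CPM, and NK cell markers to 11.5 to 15.8 and 7.60 to 12.6 CPM. Most of the NK cell sum was the locus of Klrb1c, which also lists Gm44511 and Klrb1b, and the other NK cell markers were under the filter. Dendritic cell markers summed to 8.68 to 11.0 and 12.8 to 26.3 CPM, and 1 of 5 tested rose, Cd209a (1.69 ± 0.43 to 7.24 ± 3.50 CPM). Eosinophil markers summed to 3.60 to 9.88 and 6.56 to 16.7 CPM, and 1 of 3 tested rose, Siglecf (3.19 ± 0.80 to 5.91 ± 2.0 CPM). Tumour epithelial genes were present and lower in JHU083: the summed level of 8 such markers was 296.9 to 648.6 CPM in vehicle and 103.8 to 219.3 CPM in JHU083, and 8 of 8 fell, beside 18.3% of all loci tested. Fibroblast markers (6 of 8 fell) had 106.8 to 231.3 and 28.5 to 118.5 CPM, and endothelial markers 125.8 to 213.5 and 37.4 to 88.6 CPM. The endothelial fall was that of Pecam1 (150.5 to 52.6 CPM), and the other 3 tested, Kdr, Vwf and Cdh5, did not pass. The part of these cells in the differences below was not tested. The loci Gm42418 and Rn18s-rs5 had no fragments listed in 3 vehicle and 2 JHU083 libraries, yet took 2.87% to 5.59% of all fragments elsewhere. Values within each of these sets of libraries are given where they change a result.

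Of the 10 members, all passed the filter on low counts. Under JHU083, Cxcl9, Cxcl10 and Cxcl1 fell and Cxcl13 and Ppbp rose, while Cxcl2, Cxcl3, Cxcl16, Cxcl14 and Pf4 did not pass the test. That is 5 of 10 members called at an adjusted p under 0.05, beside 36.7% of the 12500 loci tested. By direction, 2 were higher, beside 18.4% of all loci, and 3 were lower, beside 18.3%. A fall of at least 1 on the log2 scale was called for 2 members, Cxcl9 and Cxcl10, beside 4.84% of all loci. The median log2 fold change of the members was 0.02 and that of all tested loci 0.01. Adjusted p-values of single genes are from the quasi-likelihood test of edgeR with Benjamini-Hochberg adjustment over all tested loci. In bulk RNA, fewer cells of a type and less RNA per cell cannot be told apart.

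**Figure D1:**
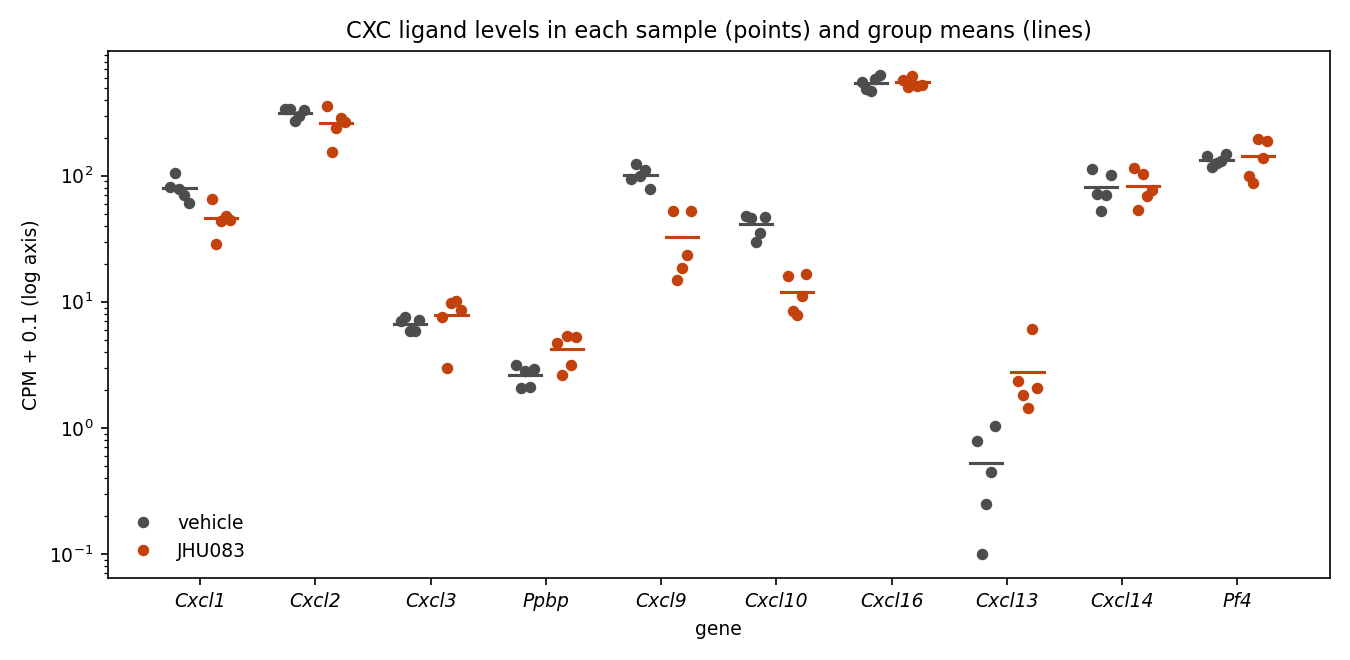
Level of each of the 10 members in every sample, as CPM + 0.1 on a log axis, with vehicle in grey and JHU083 in orange and the group means as lines. Cxcl9 and Cxcl10 lay lower in all 5 JHU083 samples than in any vehicle sample and Cxcl13 higher, while Cxcl16 overlapped throughout.

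The CXCR3 ligands were the members that fell most. Cxcl9 (XLOC_030032, chromosome 5, 92321347 to 92328079, GRCm38) was at 93.9, 123, 98.5, 110 and 78.2 CPM in vehicle replicates 1 to 5 and at 52.2, 14.7, 18.3, 23.5 and 52.7 CPM in JHU083 replicates 1 to 5. All vehicle samples were above all JHU083 samples, and JHU083 replicates 1 and 5 lay well above the other 3 of their group. The means were 100.8 ± 16.9 and 32.3 ± 18.7 CPM (mean ± SD of 5 samples). The fitted log2 difference was -1.64 ± 0.30 (SE), with an adjusted p of 0.000931.

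Cxcl10 (XLOC_030033, chromosome 5, 92346638 to 92348889) was at 48.1, 46.5, 29.7, 34.8 and 46.5 CPM in vehicle and at 16.0, 8.29, 7.75, 10.9 and 16.4 CPM in JHU083. The groups did not overlap, and JHU083 replicates 1 and 5 were again the highest of their group. The mean fell from 41.1 ± 8.31 to 11.9 ± 4.14 CPM (mean ± SD of 5 samples). The fitted log2 difference was -1.79 ± 0.21 (SE), with an adjusted p of 2.78e-05. Its fall was as large within each set of libraries parted by the loci listed at 0, at -1.83 ± 0.28 and -1.72 ± 0.26 (SE), and that of Cxcl9 was -1.55 ± 0.37 and -1.67 ± 0.36 (SE).

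Cxcl11, the remaining CXCR3 ligand and no member of the set, lies in the same cluster and fell alongside them. It was at 12.2, 17.2, 14.8, 20.3 and 16.0 CPM in vehicle and 7.30, 2.67, 3.21, 3.13 and 6.29 CPM in JHU083, with no overlap. Its log2 fold change was -1.82 ± 0.25 (SE, adjusted p = 9.99e-05). GENCODE lists Cxcl11 as a polymorphic pseudogene in the reference genome, which is of another strain than these mice.

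Cxcl16 (XLOC_006968, chromosome 11, 70453983 to 70459984), the CXCR6 ligand, had the highest counts of the members. It was at 551, 486, 468, 585 and 632 CPM in vehicle and 576, 502, 622, 517 and 523 CPM in JHU083, and all 5 JHU083 values lay within the vehicle range. The log2 fold change was 0.01 ± 0.09 (SE, adjusted p = 0.942). The sign of this small difference turned with library-size scaling, to -0.07.

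Among the CXCR2 ligands, Cxcl1 (XLOC_028408, chromosome 5, 90891241 to 90893115) was at 81.1, 105, 78.8, 70.2 and 60.2 CPM in vehicle and 65.6, 28.4, 43.2, 48.2 and 44.8 CPM in JHU083. Only JHU083 replicate 1 reached into the vehicle range. The mean fell from 79.0 ± 16.6 to 46.0 ± 13.3 CPM (mean ± SD of 5 samples). The fitted log2 difference was -0.78 ± 0.18 (SE), with an adjusted p of 0.00485. Within the libraries with the loci listed at 0 it was -0.53 ± 0.25 (SE, adjusted p = 0.226), and within the others -0.99 ± 0.18 (SE, adjusted p = 0.0038).

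Cxcl2 (XLOC_028410, chromosome 5, 90903871 to 90905938) was the most abundant CXCR2 ligand. It was at 337, 340, 273, 298 and 333 CPM in vehicle and 356, 154, 237, 288 and 266 CPM in JHU083. JHU083 held both the highest and the lowest sample, replicates 1 and 2. The log2 fold change of -0.28 ± 0.16 (SE) did not pass the test (adjusted p = 0.186); without JHU083 replicate 1 it was -0.42 and passed (adjusted p = 0.0436). Without JHU083 replicate 2 it was -0.14 (adjusted p = 0.36).

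Cxcl3 (XLOC_028404, chromosome 5, 90786103 to 90789600) was low, at 6.99, 7.47, 5.81, 5.74 and 7.05 CPM in vehicle and 7.43, 2.88, 9.62, 10 and 8.51 CPM in JHU083. JHU083 replicate 2 lay below every other library, and JHU083 replicates 3, 4 and 5 lay above every vehicle library. The log2 fold change was 0.21 ± 0.25 (SE, adjusted p = 0.528), and without JHU083 replicate 2 it was 0.43 and passed (adjusted p = 0.0331). Cxcl1, Cxcl2 and Cxcl3 are related in sequence, and how fragments matching more than 1 of them were assigned is not given in the sources used here.

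Ppbp (XLOC_028402, chromosome 5, 90768518 to 90770063), which encodes pro-platelet basic protein, rose from a low level. It was at 3.06, 1.98, 2.72, 2.0 and 2.82 CPM in vehicle and 4.57, 2.54, 5.22, 3.06 and 5.11 CPM in JHU083, that is, 23 to 78 fragments. Of the JHU083 samples, 4 were above every vehicle sample, replicate 4 only just, and replicate 2 lay within the vehicle range. The log2 fold change was 0.70 ± 0.24 (SE, adjusted p = 0.0314). With limma-voom it did not pass (adjusted p = 0.0533), nor did it in 5 of the 10 fits with 1 sample left out, those without vehicle replicate 2 or 4 or JHU083 replicate 1, 3 or 5. Within the libraries with the loci at 0 the value was 1.11 (adjusted p = 0.0533) and within the others 0.30 (adjusted p = 0.57).

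Pf4 (XLOC_028403, chromosome 5, 90772435 to 90773383), the neighbour of Ppbp, was at 143, 118, 126, 132 and 149 CPM in vehicle and 99.1, 87.3, 197, 139 and 189 CPM in JHU083. The spread was wider in JHU083, with 2 samples above and 2 below the whole vehicle range. The log2 fold change was 0.09 ± 0.19 (SE, adjusted p = 0.733). Platelet and megakaryocyte markers were low in both groups, far below Pf4 and near the level of Ppbp. The summed level of 10 was 4.78 to 6.71 CPM in vehicle and 3.06 to 6.55 CPM in JHU083. Gp6 had 0 fragments in every library. Of the 3 tested, Gp1bb, whose locus also lists Sept5, fell (2.98 ± 0.61 to 1.52 ± 0.29 CPM, adjusted p = 0.00466). Itga2b (log2 fold change 0.172, adjusted p = 0.765) did not pass, nor did the locus of Clec1b and Clec9a (0.396, adjusted p = 0.464). Under the filter, mean CPM was higher in JHU083 for Gp1ba (0.16 to 0.44), Tubb1 (0.13 to 0.34) and Treml1 (0.22 to 0.49). It was lower for Gp5 and Gp9, and none of these was tested. The part of platelet RNA in the levels of Pf4 and Ppbp was not tested.

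Cxcl13 (XLOC_028476, chromosome 5, 95956951 to 95961068), the B cell attractant, had the largest rise of the members and the lowest counts. Vehicle samples held 10, 0, 2, 4 and 12 fragments and JHU083 samples 33, 25, 18, 78 and 30. Every JHU083 sample was above every vehicle sample, and JHU083 replicate 4 was the highest by far. The mean rose from 0.42 ± 0.38 to 2.65 ± 1.88 CPM (mean ± SD of 5 samples). The fitted log2 difference was 2.60 ± 0.58 (SE), with an adjusted p of 0.00355. Without JHU083 replicate 4 it was 2.07, and it still passed. In the libraries with the loci at 0 it was 2.05 ± 0.80 (SE, adjusted p = 0.151), and in the others 2.87 ± 0.72 (SE, adjusted p = 0.0174). The 5 B cell markers summed to 2.72 to 3.77 CPM in vehicle and 3.47 to 5.14 CPM in JHU083. The 1 of them that was tested, Cd79b, a chain of the B cell receptor, rose from 2.75 ± 0.31 to 3.93 ± 0.90 CPM (SD, n = 5, adjusted p = 0.0498), and Ms4a1 had at most 3 fragments in any library. The part of B cells in the rise of Cxcl13 was not tested.

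Cxcl14 (XLOC_010404, chromosome 13, 56288643 to 56296551) was at 113, 70.9, 51.9, 70.3 and 102 CPM in vehicle and 114, 53.1, 102, 69.1 and 77.3 CPM in JHU083. The groups overlapped almost entirely, and the log2 fold change was 0.03 ± 0.22 (SE, adjusted p = 0.935). Its sign turned with library-size scaling, to -0.05, and in the libraries with the loci above 0, to -0.32 ± 0.26 (SE), while in those with the loci at 0 it was 0.42 ± 0.17 (SE, adjusted p = 0.163). In all, 3 of the 10 members did not overlap between groups (Cxcl9, Cxcl10 and Cxcl13), beside 22.3% of all tested loci.

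**Figure D2:**
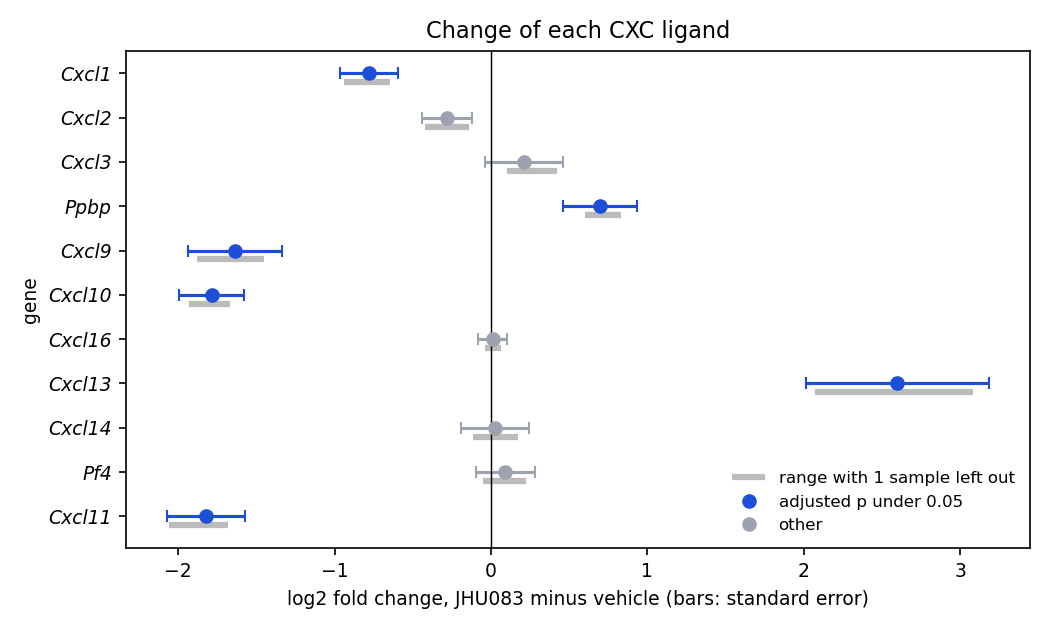
Log2 fold change of each member and of Cxcl11, JHU083 minus vehicle, with standard errors; blue points passed the adjusted threshold, and grey bars give the range over the fits that each left out 1 sample. Cxcl9, Cxcl10 and Cxcl11 sit between -1.82 and -1.64, Cxcl16 sits at 0.01 and Cxcl13 at 2.60.

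The contrast between neutrophil and T cell attractants was tested as the ratio of 1 ligand to another within each sample, which needs no scaling between libraries. For 12 pairs of a CXCR2 ligand and a T cell attractant, the mean log2 ratio was compared with an exact permutation test, two-sided, that used every split of the 10 samples into 5 and 5, and was adjusted over the 12 pairs. The smallest p this test can give is 0.0079. All 8 ratios to Cxcl9 or Cxcl10 were higher in JHU083 and passed. They share these denominators, which both fell, so they are not independent of each other or of those falls.

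The ratio of Cxcl2 to Cxcl10, the most abundant CXCR2 ligand and the best separated CXCR3 ligand, went from 2.96 ± 0.18 to 4.47 ± 0.37 in log2 units (SD, n = 5, exact permutation p = 0.0079, adjusted p = 0.0136). In vehicle it was 2.80, 2.87, 3.20, 3.09 and 2.84, and in JHU083 4.47, 4.21, 4.93, 4.72 and 4.01. Even the lowest JHU083 sample was above the highest vehicle sample. As Cxcl10 was taken for its separation in these data, this ratio is no separate support for the fall of Cxcl10. The differences of Cxcl2 to Cxcl9 (1.5), Cxcl3 to Cxcl9 (1.93) and Cxcl3 to Cxcl10 (1.94) had the same p-values. So did those of Ppbp to Cxcl9 (2.49), Ppbp to Cxcl10 (2.49) and Cxcl1 to Cxcl10 (1.03). Cxcl1 to Cxcl9 differed by 1.02 with overlapping groups (exact permutation p = 0.0238, adjusted p = 0.0317). Cxcl1 itself fell, by less than either CXCR3 ligand.

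Against Cxcl16 the picture was mixed. The log2 ratio of Cxcl1 to Cxcl16 fell by 0.82 (exact permutation p = 0.0159, adjusted p = 0.0238), a call lost without vehicle replicate 2, at -0.67 (adjusted p = 0.0529). That of Ppbp to Cxcl16 rose by 0.65 (exact permutation p = 0.0317, adjusted p = 0.0381), a call lost in 6 of the 10 fits that left out 1 sample. The ratios of Cxcl2 (-0.34, exact permutation p = 0.151, adjusted p = 0.165) and Cxcl3 (0.09, exact permutation p = 0.802, adjusted p = 0.802) to Cxcl16 did not pass. The first passed without JHU083 replicate 1, at -0.45 (adjusted p = 0.0476), and the second without JHU083 replicate 2, at 0.38 (adjusted p = 0.0433).

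**Figure D3:**
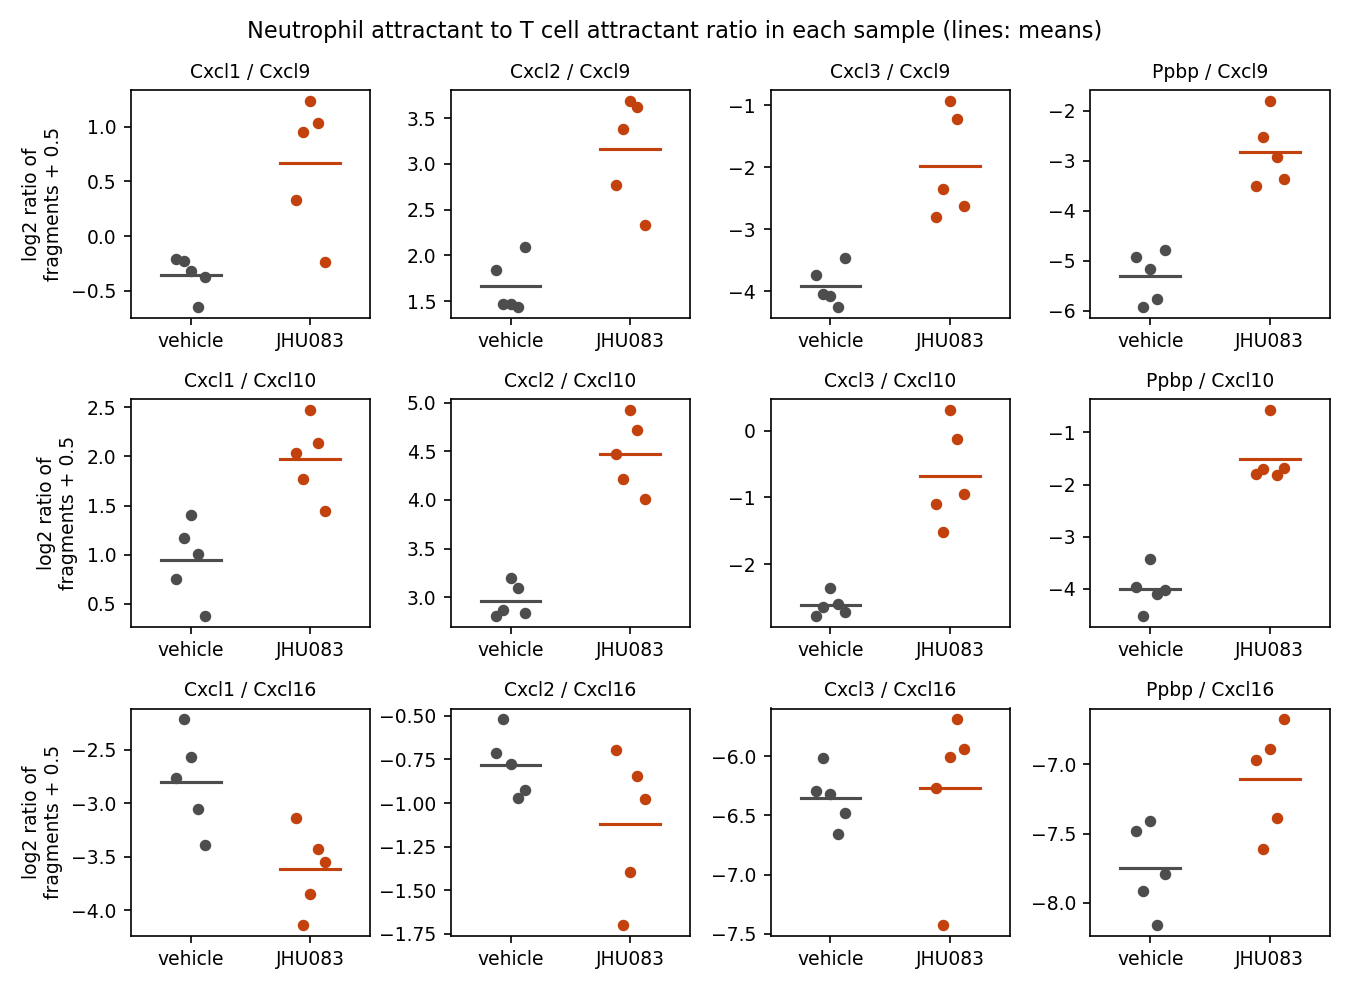
Log2 ratio of fragments + 0.5 of each CXCR2 ligand (columns) to each T cell attractant (rows) in every sample, with group means as lines; each panel has its own vertical axis. The groups did not overlap for 7 of the 12 pairs, all of them ratios to Cxcl9 or Cxcl10.

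A further 9 pairs among ligands of the same class were compared in the same way, after the values had been seen. Among the T cell attractants, the ratio of Cxcl9 to Cxcl16 fell by 1.84 and that of Cxcl10 to Cxcl16 by 1.85 in log2 units (exact permutation p = 0.0079, adjusted p = 0.0179 for both). With 1 sample left out, Cxcl9 to Cxcl16 ranged from -2.08 to -1.64. Without vehicle replicate 2, 3 or 4 it was -1.73, -1.79 or -1.83, and the adjusted p was then 0.0536. The ratio of Cxcl10 to Cxcl9 had a log2 mean of -1.30 ± 0.43 in vehicle and of -1.31 ± 0.38 in JHU083, and did not pass (SD, exact permutation p = 0.976).

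Among the CXCR2 ligands, Cxcl1 to Ppbp fell by 1.47 and Cxcl2 to Ppbp by 0.99 in log2 units (exact permutation p = 0.0079, adjusted p = 0.0179 for both). Cxcl1 to Cxcl3 fell by 0.91 (exact permutation p = 0.0238, adjusted p = 0.0429) and Cxcl1 to Cxcl2 by 0.48 (exact permutation p = 0.0317, adjusted p = 0.0476). Both of these calls depended on the family: adjusted over the 7 pairs without Cxcl16, each had an adjusted p of 0.0556. With 1 sample left out, Cxcl1 to Cxcl2 lost its call in 6 of 10 tests (-0.59 to -0.40 over all 10) and Cxcl1 to Cxcl3 in 5 of 10 (-1.07 to -0.79). Cxcl2 to Cxcl3 (-0.43) and Cxcl3 to Ppbp (-0.56) did not pass (exact permutation p = 0.151 and 0.0952). The first passed without JHU083 replicate 2, at -0.58 (adjusted p = 0.0408), and the second without JHU083 replicate 4, at -0.77 (adjusted p = 0.0143).

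Levels of different genes were compared per length, with the deposited FPKM. In vehicle, Cxcl16 (351.5 ± 46.3 FPKM, SD, n = 5), Pf4 (330.5 ± 30.7) and Cxcl2 (328.2 ± 28.7) were highest, with overlapping ranges. Cxcl1 (95.3 ± 20.5) stood below them and above Cxcl14 (46.5 ± 14.2), Cxcl10 (44.7 ± 9.16) and Cxcl9 (34.6 ± 5.88), whose neighbours in this order overlapped. Cxcl3 (7.40 ± 0.97), Ppbp (2.66 ± 0.52) and Cxcl13 (0.42 ± 0.38) followed, each apart from the next.

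In JHU083 the 10 genes had the same order of mean FPKM. Cxcl10 was at 12.6 ± 4.82 FPKM and Cxcl9 at 11.4 ± 6.90 (SD, n = 5), so that Cxcl9 now overlapped with Cxcl3, at 8.50 ± 3.24. Cxcl10 no longer overlapped with Cxcl14, at 47.6 ± 14.2. Cxcl1, at 55.8 ± 16.5, now did. Cxcl3 now also overlapped with Ppbp (4.35 ± 1.29), and Ppbp with Cxcl13 (2.61 ± 1.85).

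The CXCR3 ligands took a smaller share of the family's transcripts under JHU083. Cxcl9 and Cxcl10 made up 6.29%, 7.41%, 5.94%, 6.25% and 6.01% of the summed FPKM of the 10 members in vehicle and 3.07%, 1.71%, 1.14%, 1.73% and 2.92% in JHU083. Every JHU083 value was below every vehicle value. The 4 CXCR2 ligands made up 31.0% to 40.5% in vehicle and 24.1% to 39.0% in JHU083, which overlapped. The summed FPKM of the CXCR2 ligands was 5.15 to 6.10 times that of Cxcl9 and Cxcl10 in vehicle and 9.97 to 21.2 times in JHU083. These shares are described and carry no test.

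**Figure D4:**
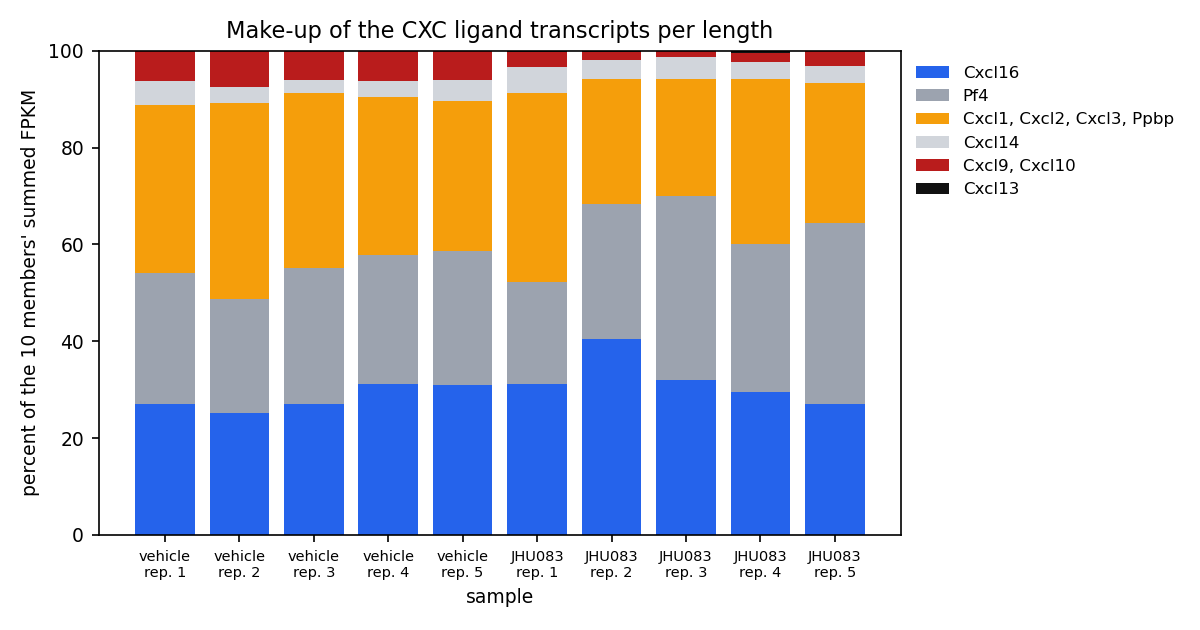
Share of each class of ligand in the summed FPKM of the 10 members, per sample, as stacked bars that add to 100%. The Cxcl9 and Cxcl10 part is 5.94% to 7.41% in vehicle and 1.14% to 3.07% in JHU083, and Cxcl16, Pf4 and the CXCR2 ligands fill most of every bar.

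The receptors for these ligands were mostly under the filter in the sorted cells. Of 10 CXC and atypical receptor genes, 4 were tested, 2 were higher and none was lower, beside 36.7% of all tested loci called. Cxcr4, the receptor of Cxcl12, rose from 201.6 ± 25.7 to 374.2 ± 41.3 CPM (SD, n = 5), with a log2 difference of 0.89 ± 0.10 (SE) and an adjusted p of 1.83e-05. Ackr3, a scavenging receptor of the same ligand, rose from 19.1 ± 2.90 to 35.4 ± 7.93 CPM (SD, n = 5), with a log2 difference of 0.89 ± 0.15 (SE) and an adjusted p of 0.000488. Cxcr2 (2.04 ± 0.36 and 3.10 ± 1.72 CPM, adjusted p = 0.222) and Cxcr3 (1.27 ± 0.57 and 1.51 ± 0.58 CPM, adjusted p = 0.612) were low in both groups. Cxcl12 itself had 2 to 14 fragments per library and was not tested, nor were Cxcl5, Cxcl15 and Cxcl17.

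Genes of the interferon input to Cxcl9 and Cxcl10 moved in both directions. Of 16 listed genes, 13 were tested, 5 were lower and 3 higher, beside 18.3% lower and 18.4% higher over all tested loci. The median log2 fold change was -0.11, beside 0.01 over all tested loci. The largest falls were those of Socs1, a feedback inhibitor of JAK signalling (18.3 ± 2.31 to 7.17 ± 1.91 CPM, SD, n = 5, log2 fold change -1.35 ± 0.17, SE, adjusted p = 5.17e-05), and of Irf7 (-0.94 ± 0.13, SE, adjusted p = 8.85e-05). Irf1, a transcription factor known to act on both ligand genes and is named here after its value was seen, fell from 181.6 ± 17.1 to 95.1 ± 14.0 CPM (SD, n = 5), with a log2 difference of -0.93 ± 0.10 (SE) and an adjusted p of 1.58e-05. The receptor gene Ifngr1 (0.53 ± 0.07, SE, adjusted p = 0.000103) and the kinase gene Jak1 (0.40 ± 0.08, SE, adjusted p = 0.00133) rose. Ifng and Ifnb1, the interferons themselves, were under the filter.

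Of the 20 genes of the NF-kappaB input to Cxcl1, Cxcl2 and Cxcl3, all were tested, 5 were lower, 4 higher and 11 did not pass. Over all tested loci, 36.7% were called, 18.3% lower and 18.4% higher, and the count of this list is near that share. Its median log2 fold change was -0.02. Il1r1, the interleukin-1 receptor (-0.83 ± 0.28, SE, adjusted p = 0.0313), and Nfkbie, an inhibitor of NF-kappaB (-0.56 ± 0.10, SE, adjusted p = 0.000816), fell. The NF-kappaB subunit gene Rel (0.46 ± 0.11, SE, adjusted p = 0.00493) and the TNF receptor gene Tnfrsf1b (0.41 ± 0.08, SE, adjusted p = 0.00111) rose.

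**Figure D5:**
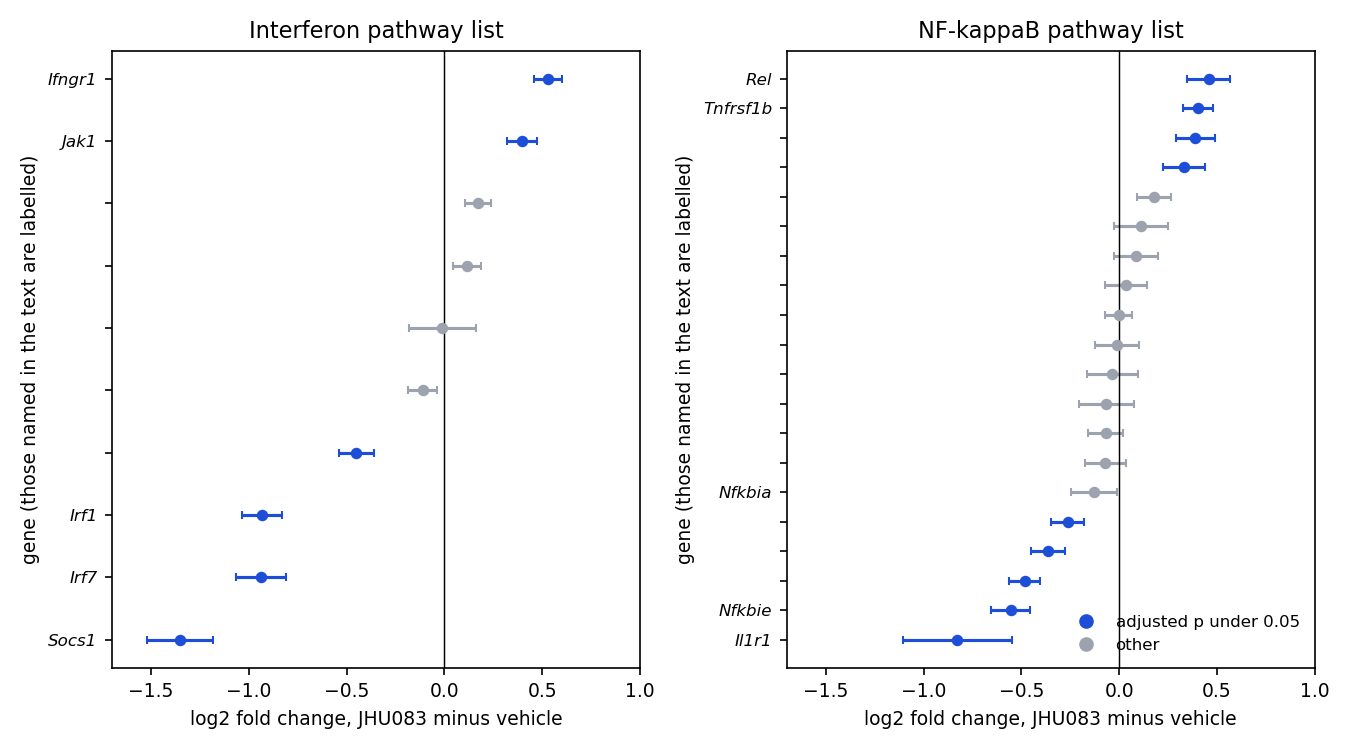
Log2 fold change, JHU083 minus vehicle, with standard errors, of the tested genes with a locus of their own in the interferon list (left) and the NF-kappaB list (right), with names for those given in the text; blue points passed the adjusted threshold. Socs1 is lowest at -1.35 on the left, and 11 of the 20 genes on the right are grey.

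For each member, the loci with the most similar pattern were sought among 10125 loci of sufficient level (10126 for Ppbp and Cxcl13), by Pearson's r of log2 CPM over the 10 samples after group means were subtracted. These are the highest of many values from libraries that share depth and handling, and are a description only. For Cxcl9 they were Gbp2 (r = 0.96), the locus of Hnrnpa3 (r = 0.95) and Iigp1 (r = 0.94), of which Gbp2 and Iigp1 are interferon-inducible GTPases. For Cxcl10 they included Ap1s3 (r = 0.96) and the locus shared by Igtp and Irgm2 (r = 0.96), which encode interferon-inducible GTPases as well.

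For Cxcl2 they were Nfkbia, an NF-kappaB target and inhibitor (r = 0.96), H2-Eb1 (r = 0.96) and Dusp5 (r = 0.95). Nfkbia, like Cxcl2, did not pass the test between treatments (-0.13, adjusted p = 0.404). For Cxcl1 they were Rab2a, Map2k3 and Adora2b (r = 0.94, 0.94 and 0.93), and for Cxcl3 Clec4d, Procr and Mt2 (r = 0.97 for each). Those of Cxcl14 were Ctdnep1, Phf11b and Ube2l6 (r = 0.98, 0.98 and 0.97). The closest loci were Tmem259 for Cxcl16 (r = 0.98), Capg for Pf4 (r = 0.98), Morf4l2 for Ppbp (r = 0.95) and 1600002K03Rik for Cxcl13 (r = 0.94).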

How the data were processed

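RNA of 10 samples was profiled from polyadenylated transcripts with a randomly primed kit that is not described as stranded, per the labels' protocols. The submitters' processing notes name bcl2fastq 2.17.1.14, FastQC 0.11.2, TopHat2 2.1.1 and GRCm38; the counting program and annotation are not given in the sources used here. A column headed as raw counts, per the file headers, was deposited with fractional values, which have the form of expected counts (estimated counts that need not be whole) but were taken as scaled fragment counts. Of the positive values, 99.2% to 99.4% are whole multiples (within 0.02) of a step per sample of 0.888 to 1.17; dividing by the step and rounding gave the fragment counts used, an inference from the values. The column headed as normalized was taken from its values to be FPKM as deposited by the authors. It was used for levels between genes only.

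Loci were filtered with filterByExpr, scaled with TMM and tested with edgeR 4.0.16 (quasi-likelihood F-test, R 4.3.3, no covariate, Benjamini-Hochberg at 0.05); 1 locus without a symbol (0.00169% of fragments) was left out. CPM uses TMM-scaled totals; the SE is the log2 fold change divided by the square root of F. On simulated counts for this comparison, where 200 of 12342 loci had a log2 change of 1, 89.5% of them were recovered and 5.79% of calls were false. In the data 36.7% of tested loci were called and changes varied in size, so these shares need not hold for the members. Ratios used fragments + 0.5. Likeness used loci of average log2 CPM of at least 2. The fit was repeated with limma-voom (limma 3.58.1), DESeq2 1.42.0, other scalings, no filter, rounded deposited values, with and within the status at the loci listed at 0, leaving out each sample, and the replicate number as a block.

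Named genes were the members, for each pathway list the 2 largest and 2 smallest changes, and up to 3 of the loci most like each member. Other genes were named outside this rule, among them Irf1, Cxcl11 and cell type markers. The members, lists and tests were chosen with earlier results of these data known, and 9 pairs of ligands were added after their values were seen. Gene positions are from GENCODE M21 and promoters from RefSeq; motifs were searched in the 250 bases before the start. Some listed genes and loci are not reported here. At these depths 3 fragments correspond to 0.191 to 0.269 CPM, for counting error only.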

Additional observations from a re-analysis of the deposited data

Results flagged for a closer look

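JHU083 replicate 2 lay far below the other samples of its group for Cxcl3, with a log2 CPM of 1.60, while the rest of the group had 2.92 to 3.35. The gap was 0.758 of the range of the group, above the critical value of 0.71 for 5 samples. Of 22 groups of 5 values examined, this was the single such case, and chance gives about 1 in 20. The same library held the lowest level of its group for Cxcl1, Cxcl2, Cxcl9, Cxcl14, Cxcl16, Pf4 and Ppbp, and its summed FPKM of the 10 members was 780.7, against 1118 to 1257 in the rest of the group. With 14620146 fragments it was neither the deepest nor the shallowest of its group. Without it, Cxcl9 was -1.45, Cxcl1 -0.65 and Cxcl3 0.43 on the log2 scale.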

How the results depend on the processing

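Cxcl9, Cxcl10, Cxcl1 and Cxcl13 kept direction and call under every alternative, except Cxcl1 (-0.53) and Cxcl13 (2.05) within the libraries with the loci Gm42418 and Rn18s-rs5 at 0, where 3 vehicle and 2 JHU083 samples remained. Ppbp lost its call with limma-voom (0.65), within these libraries (1.11), within the others (0.30), and in 5 of 10 fits with 1 sample left out (all 10 gave 0.60 to 0.83). The members called higher were 1 with limma-voom, 0 within the libraries at 0, where Cxcl13 was not called either, 1 within the others, and 1 to 3 with 1 sample left out, 3 where Cxcl3 passed without JHU083 replicate 2. Over all loci, 532 were higher and 586 lower in the libraries at 0, and 1276 higher in the others; fewer samples entered those fits. With 1 sample left out, 1821 to 2899 were higher and 1900 to 2930 lower, the most without JHU083 replicate 3 and the fewest without vehicle replicate 1. With library-size scaling, which shifted the median of all loci by -0.08, 1564 were higher and 3141 lower, against 2296 and 2293. Differences near 0 changed sign: Cxcl16 with library-size (-0.0697) and upper-quartile scaling (-0.0151) and with 1 sample left out (-0.0405 to 0.067), Cxcl14 with library-size scaling (-0.0511), in the libraries above 0 (-0.32) and with 1 sample left out (-0.115 to 0.173), and Pf4 with 1 left out (-0.0512 to 0.226). With 1 sample left out, Cxcl2 ranged from -0.42 to -0.14 and Cxcl3 from 0.10 to 0.43. Ratios ranged from -0.97 to -0.67 for Cxcl1 to Cxcl16, from -0.45 to -0.20 for Cxcl2 to Cxcl16, from -0.0569 to 0.379 for Cxcl3 to Cxcl16, from 0.54 to 0.77 for Ppbp to Cxcl16 and from -0.13 to 0.13 for Cxcl10 to Cxcl9. The causes were not tested. Same-numbered samples did not deviate together (correlations of -0.61 to -0.18 over the most variable loci). With the replicate block the edgeR fit called 1635 loci higher and 1821 lower and changed the call of no member. In the paired ratio test with the replicate block no p under 0.0625 is possible, so every ratio that passed lost its call by construction, at its reported difference. For the 10 of the 12 pairs that passed (adjusted p = 0.075) these were: to Cxcl9 1.02 for Cxcl1, 1.5 for Cxcl2, 1.93 for Cxcl3 and 2.49 for Ppbp; to Cxcl10 1.03, 1.51, 1.94 and 2.49; to Cxcl16 -0.82 for Cxcl1 and 0.65 for Ppbp. The 6 same-class pairs that passed lost theirs too (adjusted p = 0.0938). Cxcl13 in vehicle rests on at most 12 fragments per library, so its fold is the least precise of the members.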

Other observations

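Enzymes that release or trim CXC ligands were also measured. Of 9 listed, 7 were tested, 2 were higher, 1 was lower and 4 did not pass, beside 36.7% of all tested loci called, with a median log2 fold change of -0.17. Mmp9, a gelatinase known to cleave several CXC ligands, fell from 428.7 ± 171 to 136.5 ± 72.0 CPM (SD, n = 5, log2 fold change -1.65 ± 0.35, SE, edgeR adjusted p = 0.00237). Mmp8, the neutrophil collagenase, was at 6.15 ± 0.64 and 4.64 ± 1.09 CPM (SD, n = 5, adjusted p = 0.0732). Mmp12, the macrophage elastase, which can inactivate CXCR2 ligands, rose from 834.6 ± 98.2 to 1286 ± 487 CPM (SD, n = 5), with an adjusted p of 0.0352. Adam10, which sheds Cxcl16 from the cell surface, rose from 196.4 ± 23.4 to 245.9 ± 35.6 CPM (SD, n = 5, log2 fold change 0.32 ± 0.11, SE, adjusted p = 0.0311).

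Markers of T cells and neutrophils, the cells these ligands attract, were measured in the sorted cells as well. Cd4, which mouse macrophages can also express, rose from 14.7 ± 1.37 to 31.8 ± 5.98 CPM (SD, n = 5, log2 fold change 1.12 ± 0.13, SE, edgeR adjusted p = 2.07e-05). The other 9 T cell markers summed to 6.45 to 8.92 CPM in vehicle and 6.00 to 11.9 CPM in JHU083. Of the 10 neutrophil markers, S100a9 fell from 16.2 ± 1.98 to 3.61 ± 2.31 CPM (SD, n = 5, adjusted p = 0.000196) and S100a8 from 7.32 ± 1.68 to 2.78 ± 1.10 CPM (adjusted p = 0.000872), while Csf3r rose (0.53 ± 0.09 log2, adjusted p = 0.000663).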
